A study of Arabidopsis thaliana with 24 samples.

Results

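The genes described here are 23 cytochrome P450 genes of Arabidopsis thaliana. They are the genes whose name in the array annotation has the P450 form, CYP followed by a family number, a subfamily letter and a member number, and whose probe set is assigned to that gene alone. They are 23 of 13350 genes with such a probe set, and each had 1 probe set. Of the 23 genes, 19 belong to the subfamily CYP71B and the other 4 are CYP51G2, CYP78A9, CYP79A2 and CYP84A4. All 23 were found in RefSeq's TAIR10.1 annotation, in which 236 genes have a name of this form. The rest of those are not analysed here.

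Transcripts of whole seedlings were measured on 24 Affymetrix ATH1 arrays, 3 in each of 8 groups. The 8 groups combine 2 genotypes, 2 light regimes and 2 treatments. ALC::TOC1 seedlings carry TOC1, a repressor in the circadian clock, under an ethanol-inducible switch, and the wild type was Col-0. Seedlings were 13 days old. They had 12 days of light-dark cycles with 12 h of light, then a last day either in constant light (LL) or in the same cycles (LD). Ethanol-treated seedlings were submerged in Murashige-Skoog medium with 2.5% ethanol and mock-treated seedlings in the same medium without it, both for 3 h until harvest at ZT1. Every group, the mock groups included, was also given MG132, a proteasome inhibitor, at a stated 20 mM. The groups were thus ALC::TOC1 with ethanol or mock in LL, ALC::TOC1 with ethanol or mock in LD, and the wild type with the same 4 combinations. The groups hold no line that carries the ethanol switch without TOC1, and the level of TOC1 itself was not analysed here.

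Cytochrome P450s are heme-containing monooxygenases. Most plant P450s sit on the membrane of the endoplasmic reticulum and take electrons from NADPH-dependent P450 reductases. They hydroxylate and rearrange small molecules, among them sterols, hormones, phenolics, terpenes and defence compounds. CYP71B is a large plant subfamily with many tandem copies, and most of its members have no settled substrate. CYP71B6 acts on indole-3-acetonitrile, CYP71B31 oxidises the terpene alcohol linalool in flowers, CYP79A2 turns phenylalanine into the oxime used for benzylglucosinolate, and CYP84A4 belongs to the synthesis of arabidopyrones. CYP78A9 promotes the growth of fruits and seeds. CYP51G2 is a relative of the sterol demethylase CYP51G1, and RefSeq lists it and CYP71B27 as transcribed pseudogenes. CYP71B30P carries a pseudogene name, although RefSeq lists it as protein-coding.

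Levels are deposited log2 expression values, so a difference of 1 is a 2-fold difference, and they are compared within a probe set only. Many of the P450 probe sets were dim. In 11 of the 23 genes the mean of every group was under 4, against 29.14% of all probe sets, whereas 7 genes were at 4 or above in every group and 5 had groups on both sides. No level that separates signal from background was available, so a difference between dim values is of uncertain size. The group means of a gene spanned a median of 0.677 over the P450 genes and 0.595 over all probe sets. CYP71B23 had the widest span, with group means that covered 3.999 on the log2 scale, a range shown in the map of group means. The 11 genes under 4 throughout were CYP71B16, CYP71B21, CYP71B25, CYP71B27, CYP71B30P, CYP71B31, CYP71B35, CYP71B36, CYP71B37, CYP71B38 and CYP79A2. Close paralogues among these genes may share sequence, and whether a probe set also binds a neighbour's transcript was not tested. In bulk tissue, fewer cells of a type and less RNA per cell cannot be told apart.

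**Figure D1:**
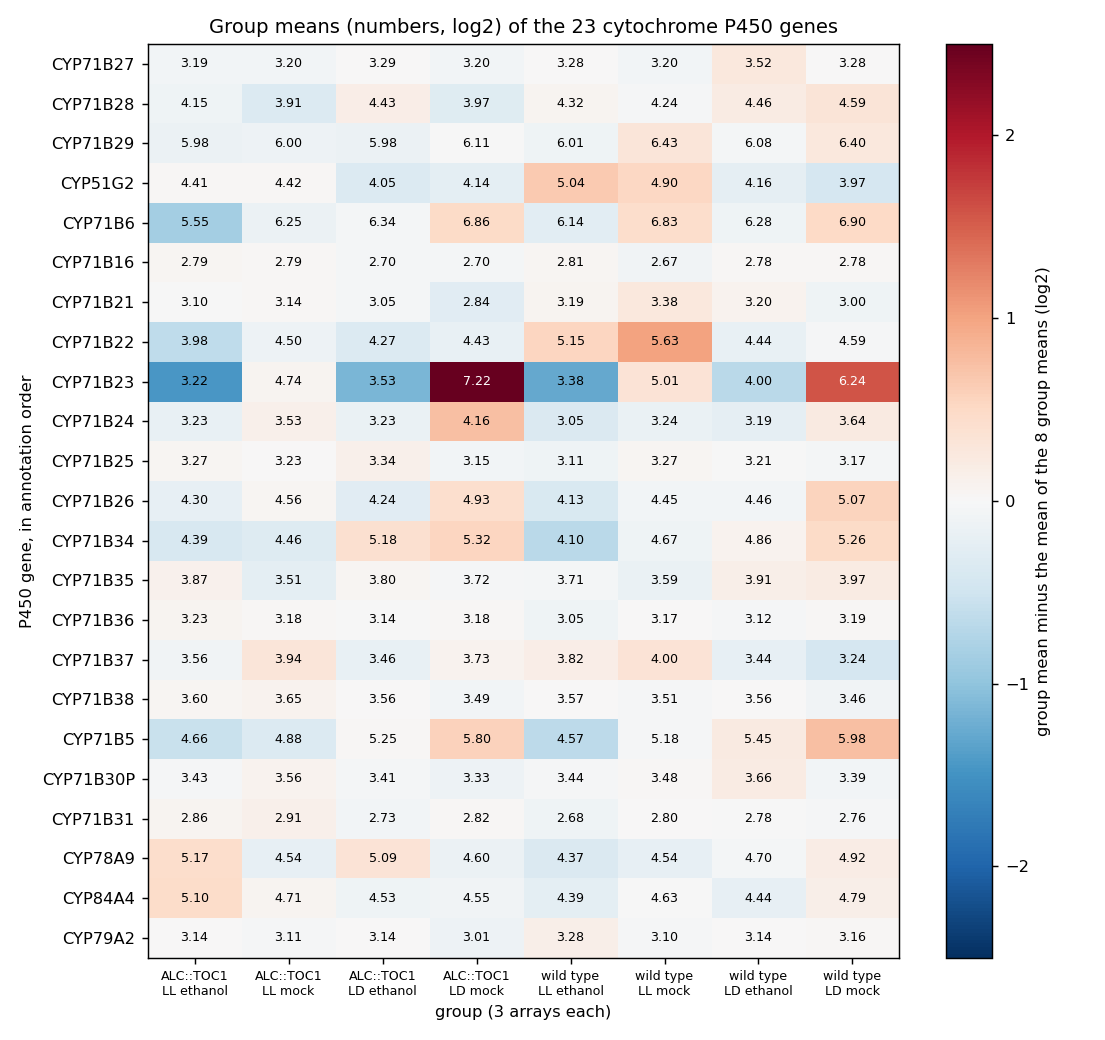
Mean log2 value (numbers, n = 3 arrays) of each of the 23 P450 genes (rows, in annotation order) in the 8 groups (columns). Colour is the group mean minus the mean of that gene's 8 group means, and CYP71B23 shows the deepest colours, with 7.22 in ALC::TOC1 LD mock arrays and 3.22 in ALC::TOC1 LL ethanol arrays.

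Arrays of a group correlated at 0.9885 to 0.9968 over all probe sets, and array medians ran between 5.15 and 5.42. The difference between the 3' and 5' GAPDH control probe sets, which rises with RNA degradation, was largest in the LL mock group of the wild type, at 1.45 ± 0.15 (SD, n = 3), and averaged 0.834 to 1.13 in the other 7 groups. Wild-type LL mock replicate 1 had the highest single value, 1.58, and it was the highest of its group in 16 of the 23 P450 genes, which counts dim genes too. Wild-type LD ethanol replicate 1 was close to that value, at 1.57, in a group that averaged 1.13 ± 0.39 (SD, n = 3). With that array left out, 2 P450 genes instead of 5 passed the test described below for ethanol in wild-type LD. The number was also 2 without mock replicate 2 or ethanol replicate 2 of wild-type LD. Few marker genes of the tissue could be matched by name to a single-gene probe set, and 8730 of the 22746 tested probe sets had no gene in the annotation. Markers so matched are called measured, and whether the others have a probe set was not examined. The leaf gene RCA, which encodes Rubisco activase and was the 1 measured of 11 mesophyll markers, had group means between 12.8 and 13.2. The root hair expansin genes EXPA7 and EXPA18 were the 2 measured of 10 root hair markers and their averaged group means lay between 3.68 and 4.73. The mitotic kinase gene AUR1, the 1 measured of 7 markers of dividing cells, had group means between 4.72 and 6.41.

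The first question was how the P450 genes respond to ethanol in ALC::TOC1 seedlings, where ethanol is meant to induce TOC1, and in the wild type, where it is not. Calls were made by limma at an adjusted p (Benjamini-Hochberg over all 22746 probe sets of a comparison) below 0.05. Shares of all probe sets are those of this fit. None is given beside counts from an altered fit or with an array left out. In ALC::TOC1 in LL, 2 of the 23 genes rose and 1 fell with ethanol, where 6.45% of all probe sets rose and 8.92% fell, 15.4% in all. In ALC::TOC1 in LD, 2 rose and 4 fell, where 8.31% of all probe sets rose and 10.4% fell, 18.7% in all. In wild-type LL none rose and 2 fell, where 7.88% of all probe sets rose and 7.91% fell, 15.8% in all. In wild-type LD 1 rose and 4 fell, where 11.2% of all probe sets rose and 14.9% fell, 26.1% in all. Centring every array on its median left 2 rises and 2 falls in wild-type LD. The called P450 genes made up 13% and 26.1% of the 23 in ALC::TOC1 LL and LD, and 8.7% and 21.7% in wild-type LL and LD. Ethanol and mock arrays did not overlap in 9 and 11 genes in ALC::TOC1 LL and LD, and 8 and 7 in the wild type. Of all probe sets, 31.4% and 36.4% did not overlap in ALC::TOC1, and 30% and 34.9% in the wild type. In the genotype and light comparisons below that share was 23.5% to 43.3%. The root hair gene EXPA7 was higher with ethanol in wild-type LL by 0.86 (adjusted p = 0.000406) and RCA differed by −0.32 in wild-type LD (adjusted p = 0.0113), and their part in these counts was not tested. The wild-type LD count was 2 when mock replicate 2 or 1 of ethanol replicates 1 and 2 was left out, and that of wild-type LL was 1 without mock replicate 1 and 4 without mock replicate 3.

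The median difference of the 23 genes was −0.0417 in ALC::TOC1 LL and −0.0411 in ALC::TOC1 LD, and −0.169 and −0.0737 in wild-type LL and LD. Over all probe sets the same medians were −0.0131, −0.00481, 0.0226 and −0.00246. In all, 4 genes fell in at least 1 of the 4 ethanol comparisons, 4 others rose in at least 1, none did both, and 15 were called in none, as were 58.9% of all probe sets. The shares of all probe sets that fell in at least 1, rose in at least 1 or did both were not computed. The 4 that fell were CYP71B5, CYP71B23, CYP71B24 and CYP71B26, all of the subfamily CYP71B, as are 19 of the 23 genes. The 4 that rose were CYP71B28, CYP71B30P, CYP71B35 and CYP78A9. The comparison of both genotypes below shows which of these differences differ between them.

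**Figure D2:**
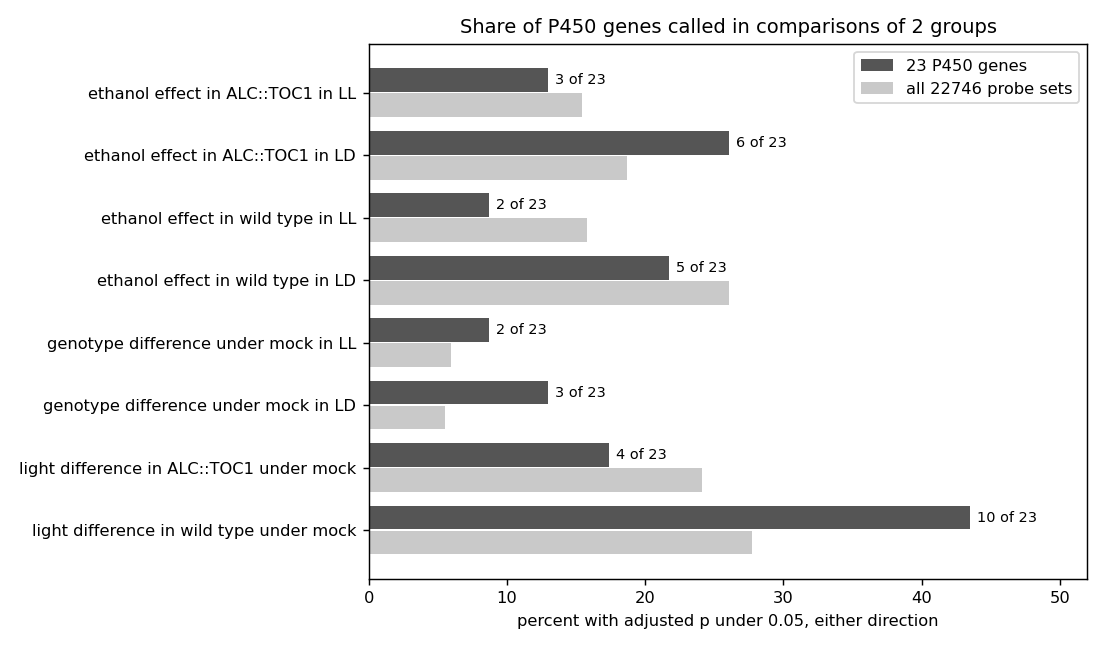
Percent of the 23 P450 genes (dark bars) and of all 22746 probe sets (light bars) with an adjusted p under 0.05 in either direction, in each of the 8 comparisons of 2 groups. The P450 share is above the light bar in ALC::TOC1 LD ethanol, in both genotype differences and in the wild-type light difference, and below it in the other 4.

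CYP71B23 fell with ethanol in all 4 comparisons, as 2.41% of all probe sets did, and it was the only P450 gene of the 23 to do so. Its role is not given in the sources used here. In LD its level was 3.35, 3.27 and 3.96 in ALC::TOC1 ethanol arrays, against 6.87, 7.76 and 7.01 in ALC::TOC1 mock arrays. In LL it was 3.28, 3.13 and 3.24 in ALC::TOC1 ethanol arrays, against 4.72, 4.59 and 4.90 in ALC::TOC1 mock arrays. Neither pair of groups overlapped. The fall was −3.69 ± 0.28 log2 (SE) in ALC::TOC1 LD, or 12.9-fold, with an adjusted p of 1.64e-08. In ALC::TOC1 LL it was −1.52 ± 0.28, with an adjusted p of 0.000617.

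The wild type showed the fall of CYP71B23 too. In wild-type LD its level was 3.74, 4.17 and 4.07 with ethanol, against 6.13, 6.19 and 6.38 under mock. In wild-type LL it was 3.61, 3.51 and 3.04 with ethanol, against 5.87, 4.32 and 4.85 under mock. These groups did not overlap either, although mock replicate 1 stood above the other two in LL. The differences were −2.24 ± 0.28 in wild-type LD (adjusted p = 6.64e-06) and −1.63 ± 0.28 in wild-type LL (adjusted p = 0.000425). The group means with ethanol lay between 3.22 and 3.996, so the size of each fall may be limited by how low the probe set can read. The fall in LD was larger in ALC::TOC1 than in the wild type by −1.45 ± 0.40 log2, with an adjusted p of 0.116, so this difference between the genotypes was not called. The 4 falls remained called with any 1 array left out.

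CYP71B24, a close neighbour of CYP71B23 in the genome, fell in LD. Its level was 3.17, 3.29 and 3.24 in ALC::TOC1 LD ethanol arrays, against 3.86, 4.47 and 4.15 in ALC::TOC1 LD mock arrays. In wild-type LD it was 3.18, 3.19 and 3.19 with ethanol, against 3.55, 3.93 and 3.44 under mock. All 3 ethanol arrays lay below all 3 mock arrays in each genotype. The fall was −0.93 ± 0.15 in ALC::TOC1 (adjusted p = 0.000173) and −0.45 ± 0.15 in the wild type (adjusted p = 0.0334). Every group mean of this gene except that of ALC::TOC1 LD mock was under 4, so the size of these falls is uncertain. The wild-type call was lost without mock replicate 2, where the adjusted p was 0.199, and without any 1 of the 3 ethanol arrays, where it was 0.0615 to 0.0765. It was also lost with median centring (adjusted p = 0.116), array weights (adjusted p = 0.141) and the compared groups fitted alone (adjusted p = 0.0574).

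CYP71B5 fell in 3 of the 4 comparisons. In ALC::TOC1 LD it was at 5.04, 5.53 and 5.18 with ethanol, against 5.60, 5.97 and 5.83 under mock. In wild-type LD it was at 5.35, 5.38 and 5.60 with ethanol, against 6.08, 6.01 and 5.85 under mock. In wild-type LL it was at 4.77, 4.49 and 4.46 with ethanol, against 5.61, 4.87 and 5.07 under mock. The groups did not overlap in these comparisons. The falls were −0.55 ± 0.16 (adjusted p = 0.0174), −0.53 ± 0.16 (adjusted p = 0.0168) and −0.61 ± 0.16 (adjusted p = 0.0112) in that order. Each call could be lost. The call in ALC::TOC1 LD was lost without mock replicate 2 or 3 or ethanol replicate 1 or 3, with adjusted p between 0.0537 and 0.0979. The call in wild-type LD was lost without mock replicate 1 or ethanol replicate 1 or 2, with adjusted p between 0.0591 and 0.0617, and after quantile normalisation again (adjusted p = 0.0639) or median centring (adjusted p = 0.0607). The call in wild-type LL was lost without mock replicate 1 (adjusted p = 0.0899), with the GAPDH difference as a covariate (adjusted p = 0.06) and with the compared groups fitted alone (adjusted p = 0.0953).

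CYP71B26 fell in LD in both genotypes. It was at 4.36, 4.36 and 3.997 in ALC::TOC1 LD ethanol arrays, against 4.64, 4.95 and 5.20 in ALC::TOC1 LD mock arrays. In wild-type LD it was at 4.66, 4.37 and 4.34 with ethanol, against 4.88, 5.39 and 4.92 under mock. The ethanol arrays lay below the mock arrays without overlap. The differences were −0.69 ± 0.18 (adjusted p = 0.00986) in ALC::TOC1 and −0.61 ± 0.18 (adjusted p = 0.0169) in the wild type. The ALC::TOC1 call was lost without mock replicate 3 (adjusted p = 0.0667) or ethanol replicate 3 (adjusted p = 0.0546). The wild-type call was lost without mock replicate 2 (adjusted p = 0.114), ethanol replicate 2 (adjusted p = 0.0615) or ethanol replicate 3 (adjusted p = 0.0555).

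**Figure D3:**
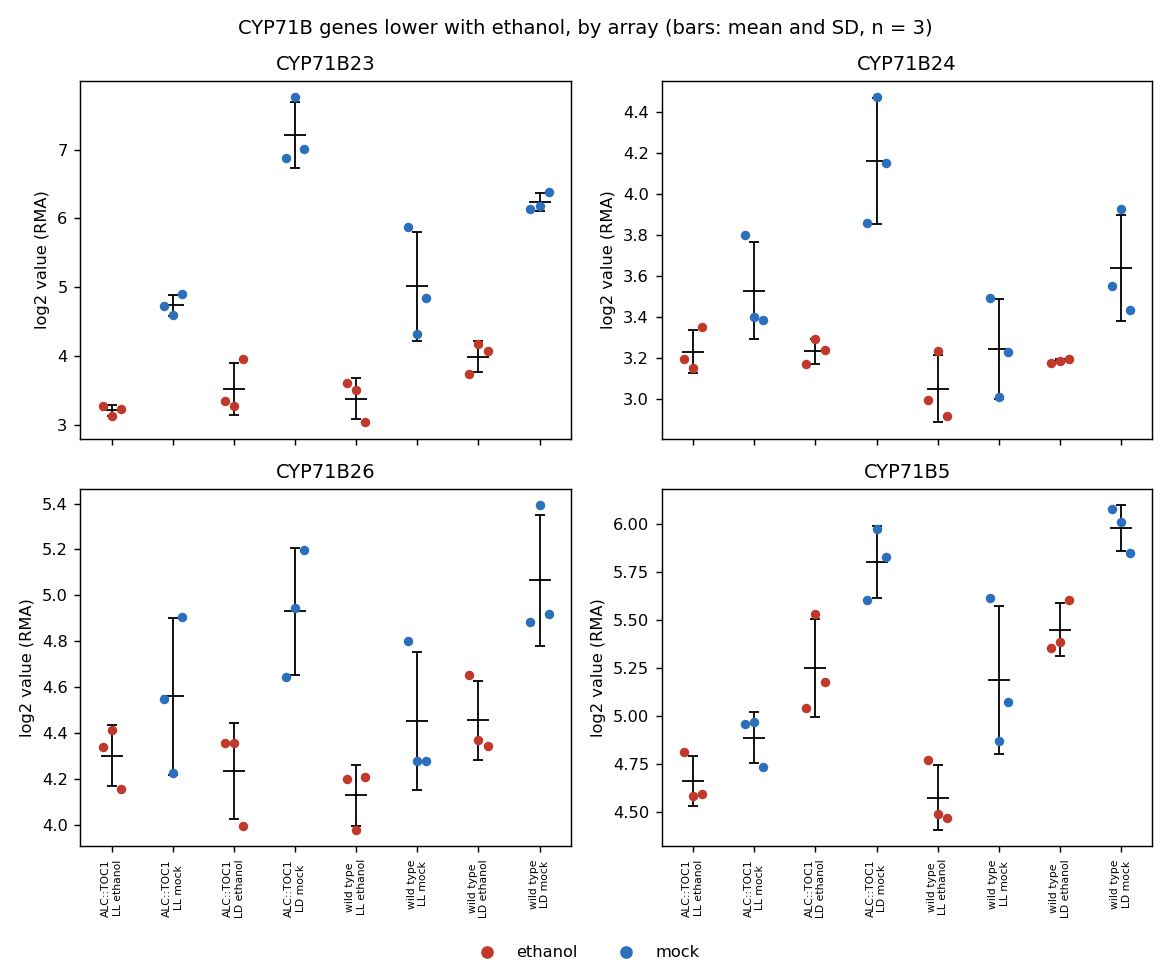
Log2 values by array of CYP71B5, CYP71B23, CYP71B24 and CYP71B26 in the 8 groups. Points are single arrays, the long bar is the group mean and the short bars are 1 SD (n = 3). The ethanol arrays of CYP71B23 sit at 4.17 or lower in every group, below all mock arrays of the same genotype and light regime.

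The levels of these 4 genes, grouped here after their values were seen, correlated over the 24 arrays, with pairwise Pearson's r between 0.647 and 0.852. With each group's mean removed the same correlations were 0.2124 to 0.5781. The arrays share light regime, genotype and treatment between the genes, so these are descriptions only.

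CYP71B6, the indole-3-acetonitrile enzyme, had ethanol differences of −0.53 to −0.70 log2 in the 4 comparisons and passed the test in none. It was at 5.67, 5.54 and 5.44 in ALC::TOC1 LL ethanol arrays, against 6.32, 6.26 and 6.19 in ALC::TOC1 LL mock arrays. These groups did not overlap, as in 31.4% of all probe sets. In LD its ethanol arrays lay below its mock arrays without overlap in both genotypes. Of all probe sets, 36.4% in ALC::TOC1 LD and 34.9% in wild-type LD did not overlap in either direction. In wild-type LL CYP71B6 was at 6.74, 6.45 and 5.22 with ethanol, against 7.62, 6.58 and 6.28 under mock, where the arrays overlapped. Its adjusted p lay between 0.14 and 0.27 over the 4 comparisons.

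CYP78A9 was the P450 gene whose ethanol effect was called different between the genotypes. In LL it was at 5.08, 5.31 and 5.12 in ALC::TOC1 ethanol arrays, against 4.45, 4.66 and 4.50 in ALC::TOC1 mock arrays. In LD it was at 5.28, 4.90 and 5.09 in ALC::TOC1 ethanol arrays, against 4.60, 4.68 and 4.50 in ALC::TOC1 mock arrays. Every ethanol array of this genotype lay above every mock array of the same light regime. In LL the rise was 0.63 ± 0.11 (adjusted p = 0.000514), and that in LD was 0.49 ± 0.11 (adjusted p = 0.00378). No rise was called for CYP78A9 in the wild type. It was at 4.28, 4.26 and 4.58 with ethanol, against 4.59, 4.61 and 4.43 under mock in LL, and at 4.71, 4.80 and 4.57 with ethanol, against 4.87, 4.78 and 5.11 under mock in LD. The wild-type differences were −0.17 ± 0.11 and −0.23 ± 0.11, with adjusted p of 0.38 and 0.17. Under mock in LD, ALC::TOC1 minus wild type was −0.33 ± 0.11 for CYP78A9 (adjusted p = 0.108), without overlap but not called. The ALC::TOC1 LD ethanol arrays overlapped the wild-type LD mock arrays.

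The difference between these ethanol effects, ALC::TOC1 minus wild type, was tested directly. CYP78A9 was the 1 P450 gene of 23 called in the mean of LL and LD, against 1.46% of all probe sets, with a difference of 0.76 ± 0.11 and an adjusted p of 0.000509. It was also the 1 called in LL, against 1.88%, at 0.80 ± 0.16 with an adjusted p of 0.00954. In LD none of the 23 was called by limma, against 0.413% of all probe sets, while 4 had an unadjusted p under 0.05. With array weights 3 were called in LD. CYP78A9 was at 0.72 ± 0.16 there, with an adjusted p of 0.0537. Its calls in the mean and in LL remained with any 1 array left out. The number called was 2 in the mean when replicate 1 of the LL mock arrays of either genotype was left out, and 2 in LL without that array of ALC::TOC1. In LD it was 2 without ALC::TOC1 ethanol replicate 3, and 1 without ALC::TOC1 ethanol replicate 2 or wild-type mock replicate 2.

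CYP84A4 had the next largest positive difference in the mean. In LL it was at 5.16, 5.05 and 5.07 in ALC::TOC1 ethanol arrays, against 4.95, 4.66 and 4.51 in ALC::TOC1 mock arrays, above them without overlap. In wild-type LL it was at 4.31, 4.37 and 4.49 with ethanol, against 4.48, 4.53 and 4.89 under mock. Its ethanol difference in ALC::TOC1 LL was 0.38 with an adjusted p of 0.0541. The difference between genotypes was 0.48 in the mean (adjusted p = 0.0794) and 0.63 in LL (adjusted p = 0.0929). No call was made for this gene.

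**Figure D4:**
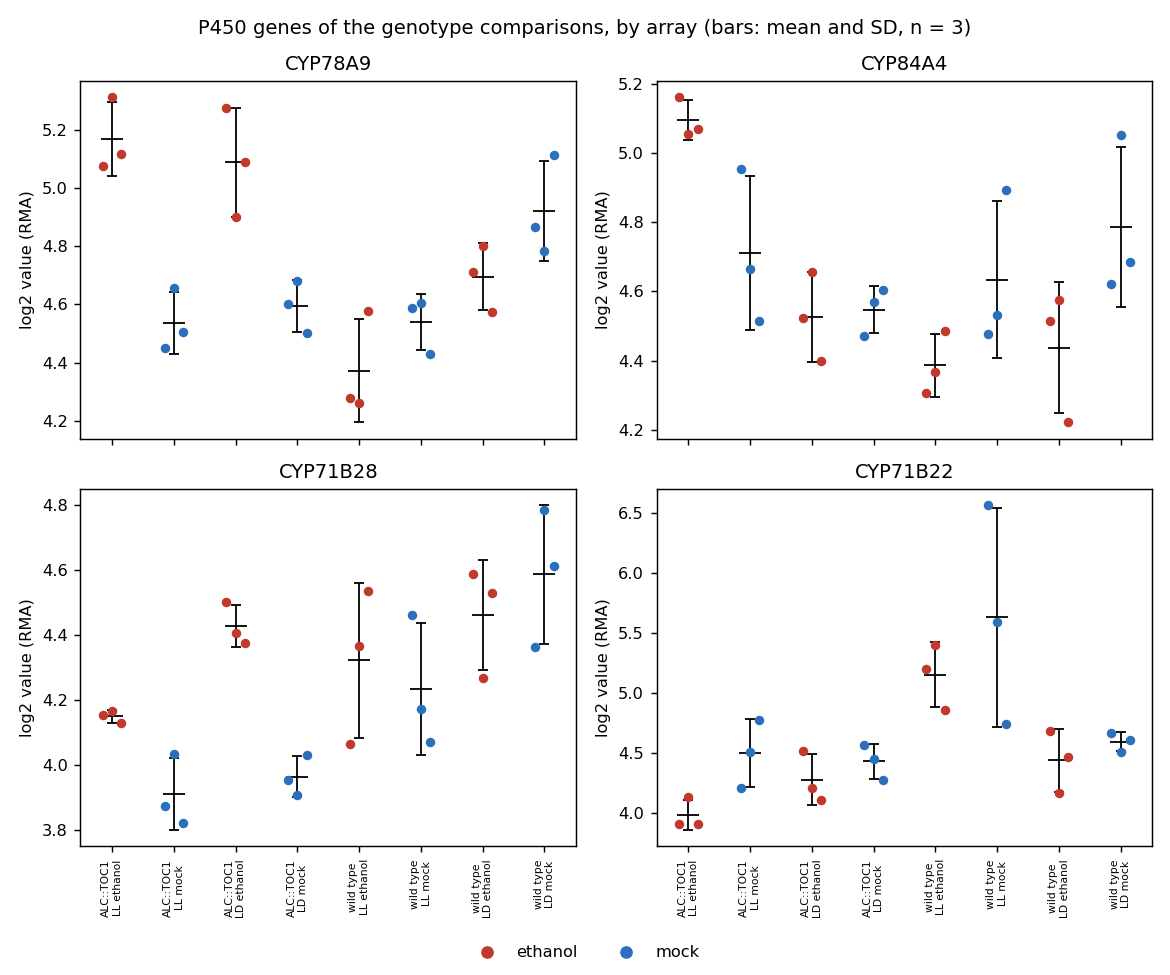
Log2 values by array of CYP78A9, CYP84A4, CYP71B28 and CYP71B22 in the 8 groups. Points are single arrays, the long bar is the group mean and the short bars are 1 SD (n = 3). All 6 ethanol arrays of CYP78A9 in ALC::TOC1 are at 4.90 or higher, above the 6 ALC::TOC1 mock arrays.

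The other 3 rises with ethanol were smaller. CYP71B28 was at 4.50, 4.41 and 4.38 in ALC::TOC1 LD ethanol arrays, against 3.95, 3.91 and 4.03 in ALC::TOC1 LD mock arrays. All ethanol arrays were above all mock arrays, by 0.46 ± 0.13 between the means (adjusted p = 0.0113). The mock mean was 3.97, and CYP71B28 was among the dimmest 40% of probe sets. In wild-type LD its ethanol difference was −0.13 (adjusted p = 0.529), and the difference between the genotypes was not called. CYP71B35 was at 3.85, 3.83 and 3.93 in ALC::TOC1 LL ethanol arrays, against 3.53, 3.49 and 3.51 in ALC::TOC1 LL mock arrays, and rose by 0.36 ± 0.10 (adjusted p = 0.0174). That call was lost without mock replicate 2 (adjusted p = 0.0539) or ethanol replicate 3 (adjusted p = 0.0729). CYP71B30P rose in wild-type LD by 0.27 ± 0.09 (adjusted p = 0.0332). The CYP71B30P call was lost without mock replicate 1 or 2 or ethanol replicate 1 or 2, with adjusted p between 0.0529 and 0.177, and with array weights (adjusted p = 0.0529) or the compared groups fitted alone (adjusted p = 0.163). CYP71B35 and CYP71B30P were under 4 in the mean of every group.

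**Figure D5:**
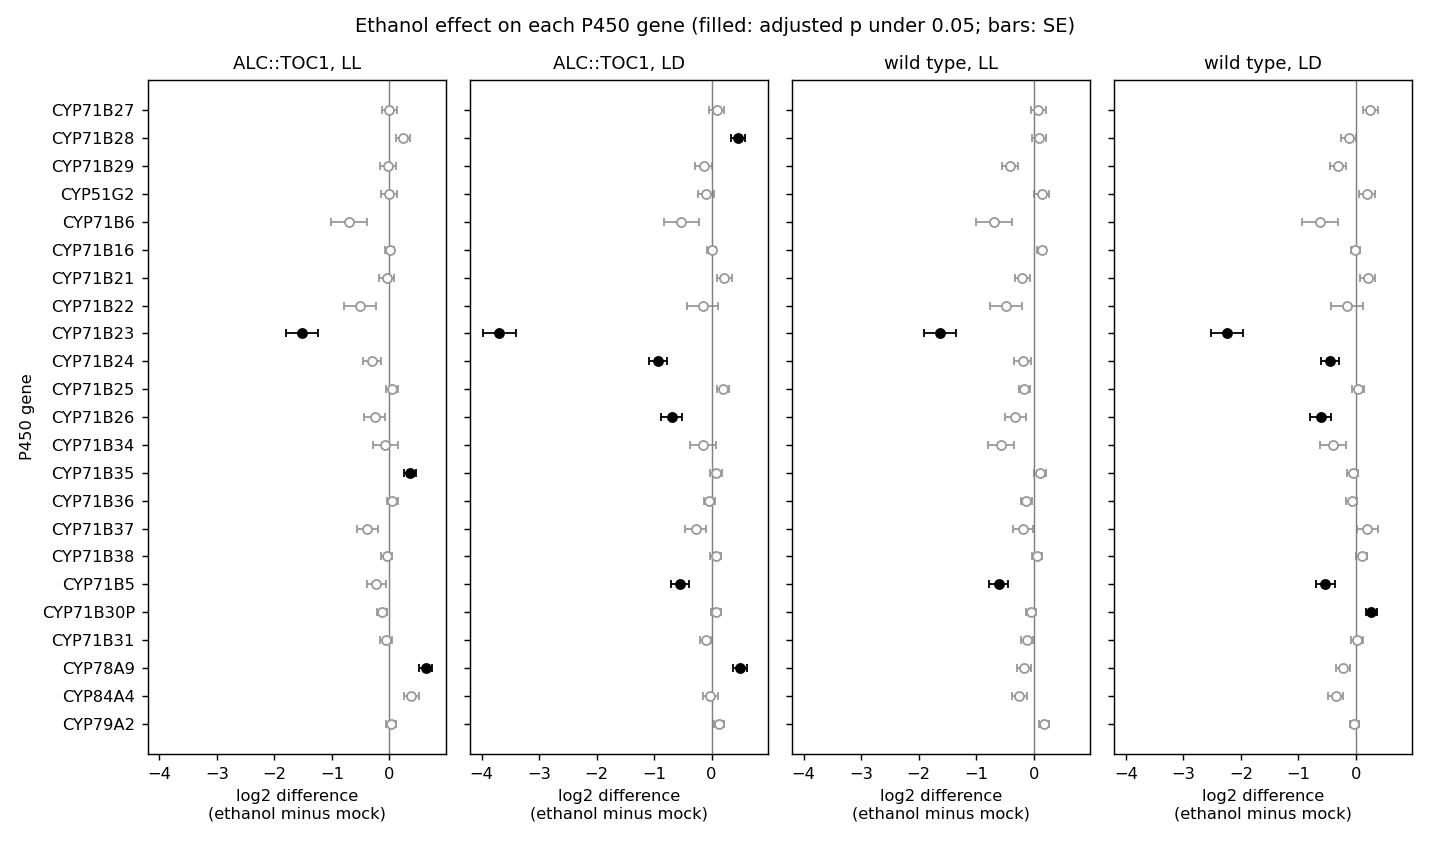
Ethanol minus mock difference (log2, bars are the SE, filled points were called) of each of the 23 P450 genes in the 4 combinations of genotype and light regime. The points of CYP71B23 lie to the left of those of the other genes, between −1.52 and −3.69, and those of CYP78A9 lie right of 0 in ALC::TOC1 and left of it in the wild type.

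Whether the ethanol effect differed between light regimes was tested within each genotype, as the effect in LL minus that in LD. In ALC::TOC1 1 P450 gene was called, CYP71B23, against 1% of all probe sets. Its difference was 2.16 ± 0.40 with an adjusted p of 0.00701, so that its fall was smaller in LL than in LD, and the call remained with any 1 array left out. The ALC::TOC1 mock level, from which the fall was measured, was itself lower in LL than in LD, and the ethanol levels were under 4 in both. In the wild type limma called none of the 23, against 5.93% of all probe sets, and 2 had an unadjusted p under 0.05.

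Genotypes were next compared under mock, where ethanol was not given. These comparisons share their mock arrays with the ethanol comparisons above, so a gene's values in both are not independent. In LL no P450 gene was higher in ALC::TOC1 and 2 were lower, where 3.03% of all probe sets were higher and 2.93% lower, 5.96% in all. CYP71B22 was at 4.21, 4.51 and 4.77 in ALC::TOC1 LL mock arrays, against 6.56, 5.59 and 4.74 in wild-type LL mock arrays, which overlapped. Its difference was −1.14 ± 0.28 (adjusted p = 0.0176). Without wild-type replicate 1, the array with the highest GAPDH difference, it was −0.67 with an adjusted p of 0.127. The adjusted p was 0.084 when ALC::TOC1 replicate 1 was left out. CYP51G2 was at 4.42, 4.43 and 4.40 in ALC::TOC1 arrays, against 4.81, 5.07 and 4.83 in wild-type arrays, without overlap. Its difference was −0.49 ± 0.14 (adjusted p = 0.0397), and the call was lost when any 1 of the 6 arrays other than wild-type replicate 3 was left out, with adjusted p between 0.0877 and 0.158, and with median centring (adjusted p = 0.0655). With the GAPDH covariate both LL calls were lost, at adjusted p of 0.228 for CYP71B22 and 0.239 for CYP51G2, and with the compared groups fitted alone that of CYP71B22 was (adjusted p = 0.159). The root hair gene EXPA7 was higher by 0.64 in ALC::TOC1 in the same comparison (adjusted p = 0.0125), and its part in these differences was not tested. The count in LL was 0 without ALC::TOC1 replicate 1 or wild-type replicate 1, and 1 without ALC::TOC1 replicate 2 or 3 or wild-type replicate 2.

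In LD 2 P450 genes were higher and 1 was lower in ALC::TOC1 under mock, where 3.03% of all probe sets were higher and 2.5% lower, 5.53% in all. After centring every array on its median 1 was higher and 1 lower. CYP71B28 was lower, at 3.95, 3.91 and 4.03 in ALC::TOC1 arrays, against 4.36, 4.79 and 4.61 in wild-type arrays, a difference of −0.62 (adjusted p = 0.00422). Its groups did not overlap, and the call remained with any 1 array left out. CYP71B23 was higher by 0.98 ± 0.28 (adjusted p = 0.0433), with 6.87, 7.76 and 7.01 in ALC::TOC1 arrays, against 6.13, 6.19 and 6.38 in wild-type arrays. CYP71B24 was higher by 0.52 (adjusted p = 0.0492), with 3.86, 4.47 and 4.15 in ALC::TOC1 arrays, against 3.55, 3.93 and 3.44 in wild-type arrays. The CYP71B23 groups did not overlap and the CYP71B24 groups did. The CYP71B23 call was lost when any 1 of the 6 arrays other than ALC::TOC1 replicate 1 was left out, with adjusted p between 0.0694 and 0.217, and with the GAPDH covariate (adjusted p = 0.0738) or trend and robust eBayes (adjusted p = 0.0521). The CYP71B24 call was lost without wild-type replicate 1 or 3 or ALC::TOC1 replicate 2 or 3, with adjusted p between 0.123 and 0.24, and with median centring (adjusted p = 0.0607) or the compared groups fitted alone (adjusted p = 0.144). The count in LD was 1 without each of wild-type replicates 1 and 3 and ALC::TOC1 replicates 2 and 3.

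Light regime was compared under mock as LL minus LD. In ALC::TOC1 4 P450 genes were lower in LL and none was higher, where 11.4% of all probe sets were lower and 12.8% higher, 24.1% in all. Among wild-type arrays 4 were higher and 6 were lower, where 13.3% of all probe sets were higher and 14.4% lower, 27.7% in all. The P450 share was 17.4% in ALC::TOC1 and 43.5% in the wild type. Whether the light difference itself differs between the genotypes was not tested. The wild-type count was 6 without LD mock replicate 2. The dividing-cell gene AUR1 was higher in LL by 1.33 in ALC::TOC1 (adjusted p = 2.68e-06) and by 1.55 in the wild type (adjusted p = 3.2e-07). The root hair genes EXPA7 and EXPA18 were higher in LL by 0.62 (adjusted p = 0.00403) and 0.77 (adjusted p = 0.000252) in ALC::TOC1, and EXPA18 by 0.37 (adjusted p = 0.0457) in the wild type. The part of these markers in the P450 differences was not tested.

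CYP71B5 and CYP71B23 were lower in LL in both genotypes. Under mock CYP71B5 was at 4.96, 4.97 and 4.73 in ALC::TOC1 LL arrays, against 5.60, 5.97 and 5.83 in ALC::TOC1 LD arrays. With the values given above, no LL mock array of either gene reached a LD mock array of the same genotype. The difference of CYP71B23 was −2.47 in ALC::TOC1 (adjusted p = 2.2e-06) and −1.22 in the wild type (adjusted p = 0.00238). That of CYP71B5 was −0.92 in ALC::TOC1 (adjusted p = 0.000261) and −0.79 in the wild type (adjusted p = 0.000755). These 4 calls remained with any 1 array left out.

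The other 2 genes lower in LL in ALC::TOC1 were CYP71B34 and CYP71B24. CYP71B34 was at 4.56, 4.33 and 4.48 in LL, against 5.36, 5.27 and 5.33 in LD, a difference of −0.87 ± 0.22 (adjusted p = 0.0068). CYP71B24 was at 3.80, 3.40 and 3.39 in LL, against 3.86, 4.47 and 4.15 in LD, a difference of −0.63 (adjusted p = 0.00455). In both genes the LL arrays lay below the LD arrays.

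In the wild type, CYP71B26 and CYP78A9 were also lower in LL, with differences of −0.61 (adjusted p = 0.0153) and −0.38 (adjusted p = 0.016). Each of these calls was lost when some single arrays were left out, that of CYP71B26 without LL mock replicate 2 or 3 or LD mock replicate 2, with adjusted p between 0.0647 and 0.0943. That of CYP78A9 was lost without LL mock replicate 3 or LD mock replicate 3, with adjusted p of 0.0685 and 0.108. The other 2 genes lower in LL, named after their values were seen, were CYP71B35, at −0.37 (adjusted p = 0.00833), and CYP71B28, at −0.35 (adjusted p = 0.0398) with overlapping arrays. The CYP71B35 call was lost without LD mock replicate 2 (adjusted p = 0.0597). The CYP71B28 call was lost without LL mock replicate 2 or 3 or LD mock replicate 2 or 3, with adjusted p between 0.101 and 0.183. With the compared groups fitted alone, the calls of CYP71B26, CYP78A9, CYP71B35 and CYP71B28 were all lost, with adjusted p between 0.0529 and 0.135.

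The 4 genes higher in wild-type LL were CYP71B22, CYP51G2, CYP71B37 and CYP71B21. CYP51G2 was at 4.81, 5.07 and 4.83 in LL, against 3.89, 3.68 and 4.33 in LD, higher by 0.94 (adjusted p = 3.24e-05). CYP71B37 was at 4.26, 4.16 and 3.58 in LL, against 3.06, 3.43 and 3.22 in LD, higher by 0.76 ± 0.18 (adjusted p = 0.00257). In both genes every LL array lay above every LD array, and both calls remained with any 1 array left out. Both genes were among the dimmest 40% of probe sets, and CYP71B37 was under 4 in the mean of every group. CYP71B22 was higher by 1.04 (adjusted p = 0.00726), a call lost without LL mock replicate 1, where the adjusted p was 0.059, and with the compared groups fitted alone, where it was 0.102. CYP71B21 was higher by 0.39 (adjusted p = 0.0316), a call lost without LL mock replicate 1 or LD mock replicate 2 or 3, with adjusted p between 0.0548 and 0.269. Median centring, array weights and the compared groups fitted alone also ended the CYP71B21 call, with adjusted p of 0.0591, 0.075 and 0.184. The GAPDH difference was 1.45 in wild-type LL mock arrays and 1.09 in wild-type LD mock arrays. As a covariate it ended the calls of CYP71B22 (adjusted p = 0.0923), CYP71B21 (adjusted p = 0.196) and CYP78A9 (adjusted p = 0.0792).

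Neighbouring P450 genes did not all move alike. In the TAIR10.1 annotation 11 of the 23 genes, from CYP71B16 to CYP71B37, lie in 1 run of 25 annotated genes, of which 18 are P450 genes. With ethanol, 1 of these 11 rose and 1 fell in ALC::TOC1 LL, where 6.45% and 8.92% of all probe sets did. None rose in the other 3 comparisons, while 3 fell in ALC::TOC1 LD, 1 in wild-type LL and 3 in wild-type LD, where 10.4%, 7.91% and 14.9% of all probe sets fell. CYP71B22 and CYP71B23 are direct neighbours in that run, and under mock in the wild type the first was higher in LL and the second lower. The CYP71B22 call was lost without LL mock replicate 1, with the GAPDH covariate and with the compared groups fitted alone. A run of 5 annotated genes holds CYP71B27, CYP71B28 and CYP71B29, of which CYP71B28 alone was called in any comparison. Another run of 5 holds CYP71B5, CYP71B30P and CYP71B31, in which CYP71B5 fell with ethanol and CYP71B31 was called in no comparison. Of the 23 genes, 10 were called in none of the 13 comparisons, as were 41.9% of all probe sets. They were CYP71B6, CYP71B16, CYP71B25, CYP71B27, CYP71B29, CYP71B31, CYP71B36, CYP71B38, CYP79A2 and CYP84A4.

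Partner genes in P450 pathways were read from 14 lists. In these, 4 of 90 P450 entries and 16 of 223 other entries matched a single-gene probe set by name. The 16 count DFR more than once. Matched entries are called measured, and whether the others have a probe set was not examined. In the phenylpropanoid list, HCT and CCR2, enzymes of the monolignol branch, and the flavonoid gene DFR were the 3 measured partners. HCT fell with ethanol in all 4 comparisons, with differences of −1.21 ± 0.16 in ALC::TOC1 LL (adjusted p = 2.12e-05) and −1.10 in ALC::TOC1 LD (adjusted p = 5.24e-05). Wild-type seedlings gave −0.54 in LL (adjusted p = 0.0259), while in LD their difference was −1.55 (adjusted p = 7.45e-07). The HCT effect in LL minus that in LD was called in the wild type, at 1.01 ± 0.23 (adjusted p = 0.0134). In ALC::TOC1 it was −0.11 (adjusted p = 0.93) and was not called. CCR2 was called in LL, at −1.10 ± 0.30 in ALC::TOC1 (adjusted p = 0.014) and −1.05 in the wild type (adjusted p = 0.0191), and in LD it was at −0.64 in ALC::TOC1 (adjusted p = 0.155) and −0.59 in the wild type (adjusted p = 0.163). Of the 3 partners, 2 fell in ALC::TOC1 LL and 1 in ALC::TOC1 LD, where 8.92% and 10.4% of all probe sets fell. In wild-type LL 2 fell and in wild-type LD 1, where 7.91% and 14.9% of all probe sets fell, and none of the 3 rose. Of 4 measured stress and detoxification partners, the glutathione transferase gene GSTU25 rose by 1.51 in ALC::TOC1 LL (adjusted p = 0.00901), 2.06 in ALC::TOC1 LD (adjusted p = 0.000542) and 2.52 in wild-type LL (adjusted p = 0.000115). In wild-type LD it was at −0.29 with an adjusted p of 0.655. The GSTU25 ethanol effect in LD, ALC::TOC1 minus wild type, was 2.34 ± 0.54 (adjusted p = 0.0582) and was not called. In the wild type its effect in LL minus that in LD was 2.80 ± 0.54 (adjusted p = 0.00564) and was called. The other 3 partners of that list were called in no ethanol comparison. Of all probe sets, 6.45% to 11.2% rose in these comparisons. Of the 3 gibberellin receptor genes GID1A, GID1B and GID1C, GID1B fell by 0.56 ± 0.13 in ALC::TOC1 LL (adjusted p = 0.0046), and none was called in the other 3 ethanol comparisons.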

How the data were processed

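Per the submitters' processing notes, the authors made the deposited log2 values with RMA in the package affy. The version is not given in the sources used here. RMA corrects background, normalises arrays by quantiles and summarises probes. Values ran between 2.165 and 13.7. Precision depends on the number of arrays. The 64 control probe sets among 22810 were not tested. In the platform annotation 13513 probe sets had 1 gene, 503 had several and 8730 had none. The brightest probe set stood for a gene.

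All 24 arrays were fitted with limma 3.58.1 in R 4.3.3 (lmFit, eBayes), with a mean per group, 16 residual and 4.865 prior degrees of freedom. There were 13 two-sided comparisons, each adjusted over 22746 probe sets. The fit was tested on simulated data. Separate growth of the replicates is not stated in the labels, so p-values measure the spread between samples only.

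The members, lists and tests were chosen with earlier results of these data known. Named were up to 4 called genes per direction in each comparison of 2 groups, up to 3 in each interaction, and up to 2 partners of each list with 3 measured. Other genes were named after their values were seen. The 14 lists had 20 measured entries in all. A further P450 gene whose name lacks a member number is given under the closing observations. Alternatives tried were a 2-fold minimum, leaving out the dimmest 40% of probe sets, quantile normalisation again, median centring, trend and robust eBayes, a replicate block, array weights, the GAPDH difference as a covariate, the compared groups alone, the mean of a gene's probe sets, and each array left out.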

Additional observations from a re-analysis of the deposited data

Results flagged for a closer look

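CYP78A9 had an ethanol effect that differed between the genotypes by a test of the difference itself. The effect in ALC::TOC1 minus that in the wild type was 0.76 ± 0.11 log2 in the mean of both light regimes and 0.80 ± 0.16 in LL (SE, limma adjusted p = 0.000509 and 0.00954). In LD it was 0.72 ± 0.16 with an adjusted p of 0.0537 and was not called. All 6 ethanol arrays of ALC::TOC1 were above all 6 mock arrays of that genotype.

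CYP71B23 had an ethanol effect that differed between the light regimes in ALC::TOC1. The effect in LL minus that in LD was 2.16 ± 0.40 log2 (SE, limma adjusted p = 0.00701), with falls of different size in the same direction. The falls started from mock means of 4.74 in LL and 7.22 in LD. They ended at ethanol means of 3.22 in LL and 3.53 in LD, so their size may be limited by how low the probe set can read.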

How the results depend on the processing

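None of the 38 P450 calls changed direction under an alternative in which the gene was tested. The 2-fold minimum aside, 20 calls remained in every alternative run for them and 18 were lost in at least 1. The filter on dim probe sets removed the gene in 14 of the 38 calls, 6 of the 20 among them. The numbers of P450 genes called moved more. The shares of all probe sets called under each alternative are not given here. Whether calls moved over all probe sets too is therefore not shown by these counts. With a 2-fold minimum 1 gene was called for ethanol in each of ALC::TOC1 LL, ALC::TOC1 LD, wild-type LL and wild-type LD, 1 for genotype in LL, 0 for genotype in LD, 1 for light in ALC::TOC1, 2 for light in the wild type, and 0 for the genotype by ethanol interaction in the mean and in LL. With array weights the counts were 5 for ethanol in ALC::TOC1 LL, 4 in wild-type LL and 3 in wild-type LD, 5 for genotype in LD, 7 for light in ALC::TOC1, and 3, 2 and 3 for the genotype by ethanol interaction in the mean, LL and LD. With the compared groups fitted alone they were 6 for ethanol in ALC::TOC1 LL, 3 for ethanol in wild-type LD, 1 for genotype in LL and 4 for light in the wild type. With dim probe sets left out they were 1 for genotype in LL, 1 for genotype in LD and 6 for light in the wild type, where 14 of the 23 genes were below the limit of 4.451 and were not tested. Median centring gave 1 for genotype in LL. The GAPDH covariate gave 1 for ethanol in wild-type LL and 0 for genotype in LL. The cause of these changes was not tested, apart from the genes removed by the filter and the 2-fold minimum.

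Replicate numbers were not used to pair the samples in the main fit, since the labels do not say that they mark a shared batch. Deviations of same-numbered arrays correlated at −0.399 to 0.488, and none of 8 comparisons had all 3 correlations over 0.1. For ethanol in wild-type LL the 3 correlations were 0.335, 0.0997 and 0.488. With 3 arrays per group these values cannot decide whether the numbers mark pairs. With the replicate block 1 gene was called for genotype in LL and 1 for genotype in LD, and the other counts stayed within 1.5 times. The calls lost were CYP51G2 for genotype in LL (adjusted p = 0.0524), CYP71B23 and CYP71B24 for genotype in LD (adjusted p = 0.0593 and 0.0608) and CYP71B28 for light in the wild type (adjusted p = 0.0534).

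With each array left out, counts ranged over 2 to 4 for ethanol in ALC::TOC1 LL, 4 to 6 in ALC::TOC1 LD, 1 to 4 in wild-type LL and 2 to 6 in wild-type LD. They ranged over 0 to 3 for genotype in LL, 1 to 3 for genotype in LD, 4 to 4 for light in ALC::TOC1 and 6 to 11 for light in the wild type. For the genotype by ethanol interaction they were 1 to 2 in the mean, 1 to 2 in LL and 0 to 2 in LD. For the light by ethanol interaction they were 1 to 1 in ALC::TOC1 and 0 to 0 in the wild type. Signal over background limits the dim genes, since no detection call was used here.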

Other observations

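CYP718, a P450 gene whose name lacks a member number, was read from 1 probe set. Its level averaged 4.33 ± 0.12 in ALC::TOC1 LL mock arrays and 3.94 ± 0.18 in ALC::TOC1 LD mock arrays (SD, n = 3 each). It was higher in LL by 0.39 ± 0.14 log2 (SE, limma adjusted p = 0.045). In the wild type the same difference was 0.03 ± 0.14 (adjusted p = 0.903), and the difference between the genotypes was not tested. With ethanol its difference was −0.37 in ALC::TOC1 LL (adjusted p = 0.071), −0.25 in ALC::TOC1 LD (adjusted p = 0.233), −0.12 in wild-type LL (adjusted p = 0.637) and −0.20 in wild-type LD (adjusted p = 0.324), and none was called.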
